A study of Mus musculus with 10 samples.

Results

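The rod phototransduction cascade is described here through 9 of the 57186 genes in the deposited count table: Gnat1, Gnb1, Gngt1, Pde6a, Pde6b, Pde6g, Cnga1, Cngb1 and Sag. They were chosen by symbol as the rod transducin subunits, the rod phosphodiesterase subunits, the rod cyclic nucleotide gated channel subunits and arrestin, and each symbol matched a single Ensembl ID. The light receptor of rods was not among the 9 and was not analysed. All 9 passed the filter on low counts that left 11499 genes for testing. RNA was sequenced from mouse neuroretina, the neural layer of the eye, taken 14 days after an injection of 1 µL into the vitreous of female C57BL6/JRj mice. The CNP group (5 libraries: CNP 4, 8, 12, 16 and 20) received hg-C3N4, a carbon nitride nanoparticle, at 1 mg/mL in PBS, and the control group (5 libraries: PBS 2, 6, 10, 14 and 18) received PBS alone. Both groups were therefore injected, no uninjected retina was among these libraries, and the sources used here do not give the age of the mice. The labels do not say that every library came from a separate animal, so the p-values measure the spread between libraries, which may be partly technical.

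In a rod, the light-activated receptor of the disc membrane binds transducin, a G protein of an alpha, a beta and a gamma subunit. The released alpha subunit lifts the inhibitory gamma subunits off phosphodiesterase 6, whose alpha and beta chains then break down cyclic GMP, and the cyclic nucleotide gated channel of the outer segment membrane closes. Arrestin ends the signal by capping the phosphorylated receptor, so it belongs to the shut-off side of the cascade although it is grouped with the activating proteins here. Loss of the phosphodiesterase beta subunit is the classic cause of retinal degeneration in mice.

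Promoter letters are shown as a description, in which Gnb1, which most cell types express, can be set beside genes of photoreceptors. Whether these letters bear on the members' shared variation over the libraries, described further on, was not tested. RefSeq promoters on GRCm38.p6 were given for 6 of the 9 members (Gnb1, Gngt1, Pde6b, Cnga1, Cngb1 and Sag). The 250 bases before each start were searched on both strands for TAATCC, the core letters bound by photoreceptor homeodomain factors such as Crx, and for TGCTGA, a core of sites bound by Maf family factors such as Nrl. Matches are in capitals, read 5′ to 3′ on the gene's strand.

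Gngt1 (chr6:3993758-3994007, plus strand): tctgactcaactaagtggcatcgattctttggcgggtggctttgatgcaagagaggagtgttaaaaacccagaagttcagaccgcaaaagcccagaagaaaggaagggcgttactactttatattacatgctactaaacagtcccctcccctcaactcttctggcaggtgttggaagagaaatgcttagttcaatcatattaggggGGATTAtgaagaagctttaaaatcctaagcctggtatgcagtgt
Pde6b (chr5:108388123-108388372, plus strand): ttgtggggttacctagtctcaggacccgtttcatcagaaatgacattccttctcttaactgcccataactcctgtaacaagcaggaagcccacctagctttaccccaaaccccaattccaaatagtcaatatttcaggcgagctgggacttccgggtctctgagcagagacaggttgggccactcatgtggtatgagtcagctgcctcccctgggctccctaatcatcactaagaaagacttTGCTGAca
Cngb1 (chr8:95306586-95306835, minus strand): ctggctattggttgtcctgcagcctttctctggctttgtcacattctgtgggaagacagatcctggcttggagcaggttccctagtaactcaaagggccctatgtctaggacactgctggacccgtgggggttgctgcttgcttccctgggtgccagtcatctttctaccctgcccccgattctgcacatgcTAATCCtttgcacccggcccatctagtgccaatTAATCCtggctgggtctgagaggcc
Sag (chr1:87803430-87803679, plus strand): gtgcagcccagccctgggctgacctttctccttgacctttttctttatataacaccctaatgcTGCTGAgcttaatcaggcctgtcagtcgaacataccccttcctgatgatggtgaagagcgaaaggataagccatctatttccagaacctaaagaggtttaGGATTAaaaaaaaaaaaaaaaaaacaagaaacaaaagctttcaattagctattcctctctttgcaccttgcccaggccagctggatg
Gnb1 (chr4:155491111-155491360, plus strand): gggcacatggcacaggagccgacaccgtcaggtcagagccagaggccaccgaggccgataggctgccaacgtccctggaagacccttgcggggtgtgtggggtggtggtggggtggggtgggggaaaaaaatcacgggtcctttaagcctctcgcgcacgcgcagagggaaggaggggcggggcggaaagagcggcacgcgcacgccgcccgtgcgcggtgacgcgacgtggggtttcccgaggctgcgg

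TAATCC was present in 4 of the 6 promoters (Gngt1, Cnga1, Cngb1 and Sag), against 6.25% of 32851 promoters of the same length. In Cngb1 it occurred at 2 places, whose first bases lay 58 and 25 bases before the start, and in Gngt1 and Sag it was read on the opposite strand, as GGATTA, 44 and 87 bases before the start. TGCTGA was present in 2 of the 6 (Pde6b and Sag), against 16.1% of all promoters. The Gnb1 window held neither motif and had 69.2% G and C with 26 CpG, where the median promoter had 52.4% and 6 CpG and the other 5 members had 38.4% to 55.6% and 2 to 4 CpG. No matches overlapped in these windows. A match describes letters and does not show that a factor is bound.

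The 10 libraries held 3328518 to 5428697 counts each, and the members together took 5.25% of all of them. Among the other lists, the recovery genes of rods and cones took 1.11% to 1.73% of counts per library, Müller glia markers 0.303% to 0.533%, cone counterparts of the members 0.224% to 0.274%, bipolar markers 0.124% to 0.195%, ganglion cell markers 0.118% to 0.212% and amacrine markers 0.0422% to 0.159%. Lens crystallins took 0.033% to 1.36%, and pigment epithelium and melanocyte markers 0.0509% to 0.231%. The tissue source of these counts was not tested. The lowest member count was 1594 (Pde6a in CNP 12), a counting error of 2.5%, and the highest 118645 (Gnb1 in CNP 4), a counting error of 0.29%. The counting error was therefore far below the spread between libraries, and covers counting only.

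No cascade gene passed the test between CNP and PBS. edgeR's quasi-likelihood test called 0 of 9 at an adjusted p under 0.05, where it called 0% of all 11499 genes tested, and at an unadjusted p under 0.05 it called 0 of 9, where it called 1.19% of all genes (137). DESeq2 and limma-voom also called 0 members and 0 genes. The members' log2 fold changes, CNP against PBS, ran from -0.15 for Pde6g to 0.05 for Pde6b, with a median of -0.05 beside -0.0036 over all genes tested; 7 were negative and 2 positive. The edgeR adjusted p was 0.9997 for each of the 9. The 95% intervals of all 9 lay between a fold of 0.645 and 1.46, so a 2-fold change in either direction was outside each of them. No member had groups without overlap, where 0.287% of all genes had.

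**Figure D1:**
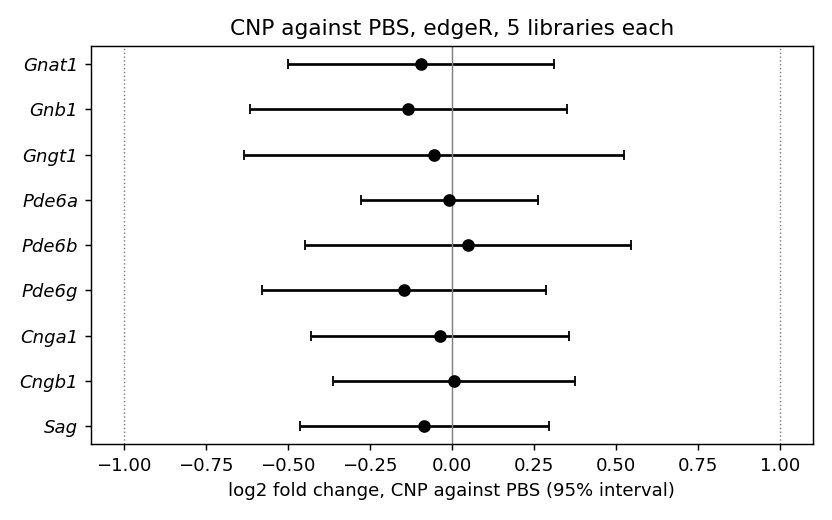
The log2 fold change of each cascade transcript, CNP against PBS, is plotted as a point with its 95% interval from edgeR (5 libraries per group), and dotted lines mark 2-fold changes. All 9 intervals cross 0 and stay inside the dotted lines.

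The transducin subunits Gnb1 and Gngt1 had the highest mean CPM of the 9 members. Gnat1 (ENSMUSG00000034837, chromosome 9), the alpha subunit that carries the signal to the phosphodiesterase, measured 6109.8 CPM in PBS 2, 5356 in PBS 6, 5051 in PBS 10, 8849 in PBS 14 and 7577 in PBS 18. CPM are counts scaled to a common library size by TMM, which corrects library totals for a few dominant genes. In CNP it measured 6746 CPM in CNP 4, 4730.1 in CNP 8, 6565 in CNP 12, 6204 in CNP 16 and 6640.5 in CNP 20. Both the highest and the second highest library were PBS libraries, the lowest was CNP 8, and the other 4 CNP libraries lay inside the PBS range. The means were 6589 ± 1597 CPM in PBS and 6177 ± 834 CPM in CNP (SD, n = 5 each), a log2 fold change of -0.09 (95% interval -0.50 to 0.31).

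Gnb1 (ENSMUSG00000029064, chromosome 4), the beta subunit, is used by G proteins of many cell types besides rods, and it ranked 2 among all genes of the table by pooled count. It measured 18716, 18163, 18531, 33031 and 25255 CPM in PBS 2, 6, 10, 14 and 18. The CNP libraries 4, 8, 12, 16 and 20 held 21684, 18994, 21878, 16559 and 24648 CPM. PBS 14 stood above every other library and CNP 16 below every other, and the groups overlapped between 18163 and 24648 CPM. The log2 fold change was -0.13 (95% interval -0.61 to 0.35). Gnb1 pseudogenes are annotated in the mouse genome, and the sources used here do not say how reads shared with them were assigned.

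Gngt1 (ENSMUSG00000029663, chromosome 6), the gamma subunit that anchors the rod G protein to the membrane, had the widest spread of the 9, with a coefficient of variation of 31.7% over the 10 libraries. It measured 5669.8, 5363, 6028, 13159 and 10136 CPM in PBS 2, 6, 10, 14 and 18. Values of 7581, 5287, 9209, 8458 and 8326 CPM were measured in CNP 4, 8, 12, 16 and 20. PBS 14 and PBS 18 held the highest values, while the other 3 PBS libraries lay below 4 of the 5 CNP libraries. The means were 8071 ± 3443 CPM in PBS and 7772 ± 1505 CPM in CNP (SD, n = 5 each), and the log2 fold change was -0.05 (95% interval -0.63 to 0.52).

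The phosphodiesterase chains stood at very unequal levels. Pde6b (ENSMUSG00000029491, chromosome 5), the catalytic beta chain, measured 3010.2, 3801, 3447, 6479 and 4494 CPM in PBS 2, 6, 10, 14 and 18. In CNP 4, 8, 12, 16 and 20 it measured 3507, 3047, 5020.5, 5137 and 5276 CPM. The 5 libraries numbered up to 10 all lay below the 5 numbered above 10, in both groups. Pde6a (ENSMUSG00000024575, chromosome 18), the catalytic alpha chain with which the beta chain pairs in rods, measured 481, 426, 431, 519 and 600.2 CPM in the PBS libraries in the same order. In the CNP libraries it measured 486, 451, 479.9, 434 and 594 CPM. Pde6a was the steadiest member, with a coefficient of variation of 12.9% against 26.5% for Pde6b. Their log2 fold changes were -0.0073 (95% interval -0.28 to 0.26) for Pde6a and 0.05 (-0.45 to 0.55) for Pde6b.

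Pde6g (ENSMUSG00000025386, chromosome 11), the inhibitory gamma chain, measured 5764, 5206, 5504, 8958 and 8594 CPM in PBS 2, 6, 10, 14 and 18. Among CNP libraries it measured 6566, 4514, 6699, 6184 and 6784 CPM in CNP 4, 8, 12, 16 and 20. All 5 CNP libraries lay below the PBS mean of 6805 ± 1815 CPM (SD, n = 5), which was raised by PBS 14 and PBS 18; 4 of the 5 lay above PBS 2, 6 and 10. The log2 fold change of -0.15 (95% interval -0.58 to 0.29) was the lowest of the 9.

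The channel subunits were scarcer. Cnga1 (ENSMUSG00000067220, chromosome 5), which forms the pore, measured 479, 378, 470.3, 685 and 719 CPM in PBS 2, 6, 10, 14 and 18. In CNP 4, 8, 12, 16 and 20 it measured 515, 417, 531, 538 and 663 CPM, all within the PBS range. Cngb1 (ENSMUSG00000031789, chromosome 8), the modulatory subunit, measured 689, 659, 729.5, 1024 and 1106 CPM in the PBS libraries in the same order. In the CNP libraries it measured 794, 662, 921, 845 and 1007 CPM, again all within the PBS range. The Cngb1 gene also encodes glutamic acid rich proteins of the outer segment, and a count per gene does not separate those transcripts from the channel subunit. The log2 fold changes were -0.03 (95% interval -0.43 to 0.36) for Cnga1 and 0.0080 (-0.36 to 0.38) for Cngb1.

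Sag (ENSMUSG00000056055, chromosome 1), which encodes arrestin, measured 4776, 4709, 4221, 7163 and 6018 CPM in PBS 2, 6, 10, 14 and 18. In CNP 4, 8, 12, 16 and 20 it measured 4783, 4043, 5490.5, 5320.2 and 5736 CPM. PBS 14 and PBS 18 were again the highest and CNP 8 the lowest. The log2 fold change was -0.08 (95% interval -0.46 to 0.30).

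**Figure D2:**
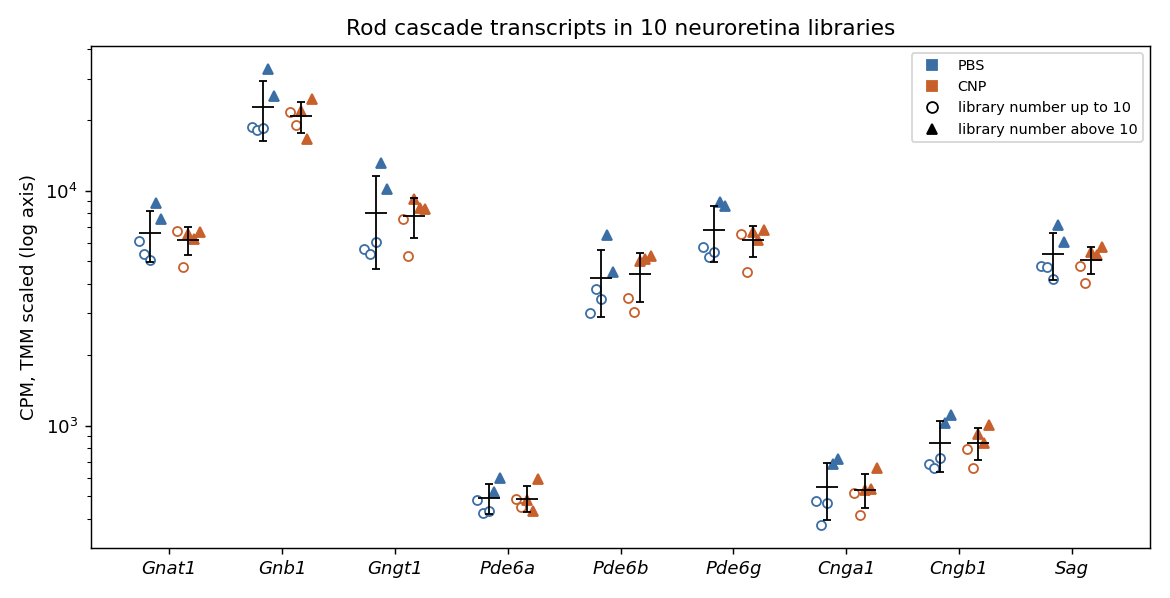
CPM (TMM scaled, log axis) of the 9 cascade transcripts are plotted for each library, PBS in blue and CNP in orange, with the group mean and SD (n = 5) as black bars; open circles are libraries numbered up to 10 and filled triangles those numbered above 10. PBS 14 holds the highest value of 6 members, and PBS and CNP overlap for every member.

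By mean CPM the order was Gnb1, Gngt1, Pde6g, Gnat1, Sag, Pde6b, Cngb1, Cnga1 and Pde6a. Neighbours in this order differed the same way in all 10 libraries except that Gngt1 exceeded Pde6g in 9, Pde6g exceeded Gnat1 in 5 and Cnga1 exceeded Pde6a in 7, so neither Pde6g and Gnat1 nor Cnga1 and Pde6a could be ordered. Per kilobase of the longest annotated transcript the order changed. Pde6g then led with a mean level of 7197 ± 1563 CPM per kb, beside 6919 ± 1555 for Gnb1 and 6696 ± 2122 for Gngt1 (SD over 10 libraries), and these 3 could not be ordered. Pde6a was last at 107 ± 13.8 CPM per kb. The primers carried molecular identifiers, and the sources used here do not say whether counts scale with transcript length, so both scales are shown. If counts do not scale with length, dividing by length favours short transcripts and only the order by CPM holds.

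Ratios between subunits within a library do not depend on library size. For all 12 ratios compared between the groups (8 among cascade genes and 4 of a rod gene to its cone counterpart) the adjusted p of the exact permutation test was 0.883 or more, and 0 had an unadjusted p under 0.05. The smallest two-sided p that 5 libraries against 5 can give is 0.00794, and a lone ratio at that value would have an adjusted p of 0.0952. The test could therefore not pass the threshold on a lone ratio.

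The counts of the catalytic chains were far from equal: the Pde6a to Pde6b count ratio was 0.16, 0.112, 0.125, 0.0801 and 0.134 in PBS 2, 6, 10, 14 and 18. In CNP 4, 8, 12, 16 and 20 it was 0.139, 0.148, 0.0956, 0.0846 and 0.113. Every library thus held fewer Pde6a than Pde6b counts, and the ratio spanned 1.99-fold between PBS 14 and PBS 2, both of the control group. The log2 difference, CNP minus PBS, was -0.07 (SE 0.23; exact permutation p = 0.762, adjusted p = 0.883). Per kilobase, a scale that applies only if counts scale with transcript length, the geometric mean ratio was 0.0709.

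The inhibitory chain outnumbered the catalytic chains, with Pde6g at 1.45 ± 0.209 (SD, n = 5) times the sum of Pde6a and Pde6b counts in PBS and 1.28 ± 0.213 (SD, n = 5) times in CNP. This ratio had the lowest p of the 12 (log2 difference -0.18, SE 0.14; exact permutation p = 0.198, adjusted p = 0.883). It ranged from 1.23 to 1.69 in PBS and from 1.11 to 1.64 in CNP, so the groups overlapped over most of their range.

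Some pairs kept nearly fixed proportions. The Cnga1 to Cngb1 count ratio lay between 0.574 and 0.695 in all 10 libraries, a 1.21-fold range, with a PBS mean of 0.646 ± 0.0453 and a CNP mean of 0.63 ± 0.0319 (SD, n = 5 each). The Sag to Gnat1 ratio lay between 0.709 and 0.879, with means of 0.82 ± 0.0387 in PBS and 0.824 ± 0.0653 in CNP. The subunits of transducin varied more against each other. The Gnat1 to Gngt1 ratio was 1.08, 0.999, 0.838, 0.672 and 0.748 in PBS 2, 6, 10, 14 and 18, and 0.89, 0.895, 0.713, 0.733 and 0.798 in CNP 4, 8, 12, 16 and 20. Its 5 values in libraries numbered up to 10 (0.838 to 1.08) all lay above its 5 values in libraries numbered above 10 (0.672 to 0.798), and its log2 difference between CNP and PBS was -0.09 (SE 0.14; exact permutation p = 0.548).

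**Figure D3:**
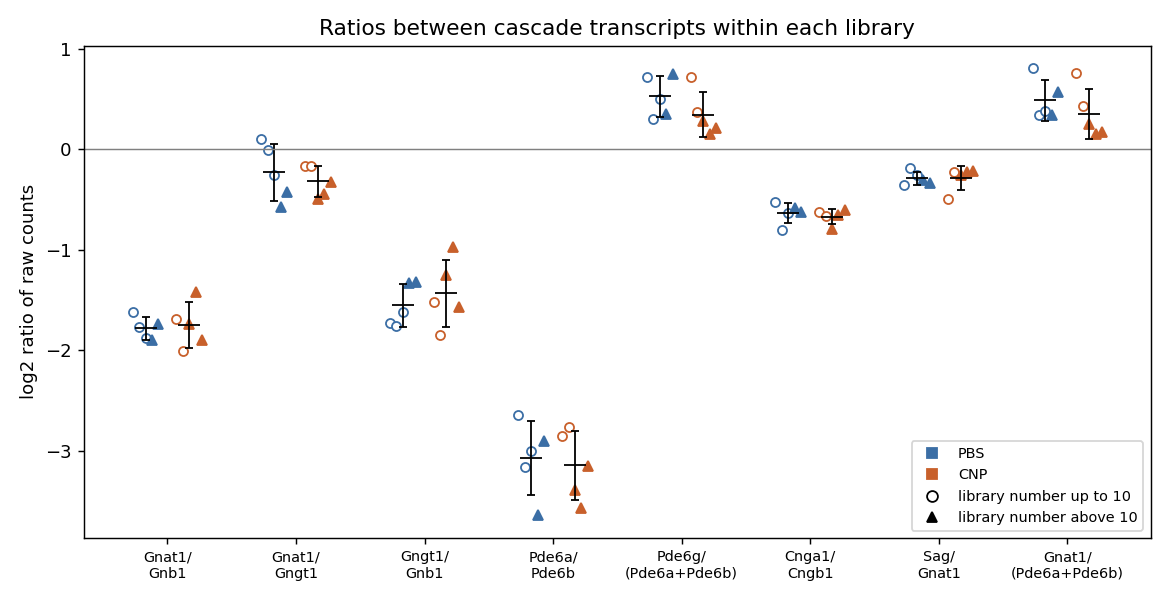
The log2 ratio of raw counts between cascade transcripts is plotted for each library, with the group mean and SD (n = 5) as black bars; PBS is blue and CNP orange, and symbols give the library number. Cnga1/Cngb1 and Sag/Gnat1 are tightly grouped, Pde6a/Pde6b is the most spread, and the 2 groups overlap for every ratio.

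Rod genes exceeded their cone counterparts in every library. Gnat1 counts were 15.4 ± 2.08 times those of the cone alpha subunit Gnat2 in PBS and 14.2 ± 2.44 times in CNP (SD, n = 5 each; log2 difference -0.12, SE 0.14; exact permutation p = 0.389). Sag counts were 35.6 ± 6.56 times those of cone arrestin, Arr3, in PBS and 32.9 ± 1.8 times in CNP (log2 difference -0.09, SE 0.13; exact permutation p = 0.5). Gngt1 to Gngt2, the gamma subunits, stood at 19 ± 2.19 in PBS and 19.3 ± 1.56 in CNP. Gnb1 to Gnb3, a beta subunit used in cones, was the least steady, at 18.7 to 40 over the 10 libraries. Because Gnb1 is used by many cell types besides rods, this ratio does not compare rods with cones alone. Of the 8 cone counterparts 0 passed the edgeR test, with log2 fold changes from -0.23 to 0.11. The most abundant were Gnb3 (log2 fold change -0.03, 95% interval -0.25 to 0.19) and Pde6h, the cone inhibitory chain (0.02, -0.46 to 0.49).

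Genes that end the photoresponse and set calcium feedback gave the same picture of overlap: 0 of 11 passed, the fold change was positive for 7 and negative for 4, and the median log2 fold change was 0.03. The most abundant were Pdc, phosducin, which binds the transducin beta and gamma subunits (5202 ± 1619 CPM in PBS and 4929 ± 887 in CNP; log2 fold change -0.08, 95% interval -0.56 to 0.40), and Guca1b, a calcium sensor of guanylate cyclase (4697 ± 1739 and 4604 ± 896.5 CPM; -0.03, -0.54 to 0.48; SD, n = 5 each).

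The members' larger variation was between libraries rather than between groups. With TMM scaling, their median coefficient of variation over 10 libraries was 21.3%. It was 18.9% over all genes tested and 13.2% over the 3237 genes at 50 CPM or more. PBS 14 held the highest level of 6 members and PBS 18 of the other 3, Pde6a, Cnga1 and Cngb1. CNP 8 held the lowest level of 4 members and PBS 6 of 3. Averaged over the 9 members, log2 CPM stood 0.48 above the mean of all libraries in PBS 14 and 0.32 above in PBS 18. It fell by 0.35 below that mean in CNP 8 and by 0.28 in PBS 6. These levels depend on the TMM factors, which were lowest in PBS 14 (0.848) and highest in PBS 2 (1.098). On library totals the edgeR SE of the log2 fold change was smaller for each of the 9 members. It went from 0.187 to 0.114 for Gnat1 and from 0.125 to 0.102 for Pde6a. The members' summed share of library totals was still highest in PBS 14 (6.75%) and lowest in CNP 8 (4.58%).

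Members varied together on this scale. Over 10 libraries all 36 pairs of members had a positive Pearson correlation of log2 CPM, with a median r of 0.832 (range 0.44 to 0.965) and a median Spearman rho of 0.812 (0.37 to 0.976). With 100000 permutations, 34 pairs passed an adjusted p under 0.05 for r and 32 for rho. No such count was made for pairs of other genes. Of 3228 other genes at 50 CPM or more, 611 had r above 0.8 with the members' mean pattern. The closest pairs were Gnat1 with Pde6g (r = 0.965, rho = 0.952, permutation adjusted p = 0.00036 and 0.00099) and Cnga1 with Cngb1 (r = 0.96, rho = 0.976, permutation adjusted p = 0.00036 for each). The weakest was Pde6a with Pde6b (r = 0.44, rho = 0.37, permutation adjusted p = 0.204 and 0.293). Each pair was also taken without the 2 libraries farthest from the median of whichever of its genes is listed first among the members. The median r was then 0.782 (0.323 to 0.947). The scaling matters here: on library totals in place of TMM the median r was 0.602 and 11 of 36 pairs passed. After the means of the libraries numbered up to 10 and above 10 were removed, an alternative added after seeing the data, the median r was 0.674 and 9 pairs passed. The 5 libraries of each set were too few for a correlation of their own.

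That division by library number, which the labels do not call a batch, ran through the members. For 5 of 9 (Gngt1, Pde6b, Cnga1, Cngb1 and Sag) all 5 libraries numbered above 10 exceeded all 5 numbered up to 10, where 9.82% of all genes did. On library totals it was 3 of 9 (Gngt1, Pde6b and Cngb1), where 3.45% did. The pattern was not particular to the cascade. It held for 6 of 11 recovery genes (3 on library totals) and 3 of 8 cone counterparts (2 on library totals). Gngt1 averaged 5986 CPM in libraries numbered up to 10 and 9858 CPM in those above. Pde6a moved least, from 455 to 525 CPM. On library totals in place of TMM these means were 6407 and 9114 CPM for Gngt1, and 488.3 and 489.5 CPM for Pde6a. For Gnat1 they were 6002 and 6642 CPM on library totals, beside 5599 and 7167 CPM with TMM. The size of the difference therefore depended on the scaling. Amacrine markers went the other way: summed, they measured 944 to 1460 CPM in libraries numbered up to 10 and 499 to 830.4 CPM in those above, and 5 of 6 tested amacrine genes were lower in all 5 of the latter, where 10.8% of all genes were. Among the 8 bipolar markers 4 were lower in all 5 in this way, among the 7 ganglion cell markers 5, and among the 8 Müller glia markers 1, a share near that of all genes. The sums of these 3 lists overlapped between the former and the latter: 1618 to 1838 and 1302 to 1908 CPM for bipolar, 1523 to 2077 and 1341 to 1810 CPM for ganglion cell, and 4343 to 5163 and 3507 to 4791 CPM for Müller glia markers. Pigment epithelium and melanocyte markers went the way of the members, from 468 to 1248 CPM in the former to 1420 to 2417 CPM in the latter, with 5 of 6 genes higher in all 5 of the latter (4 of 6 on library totals). The number of genes detected was 17370 to 17817 in the former and 16653 to 17350 in the latter. Library totals were 4325794 to 5428697 counts in the former and 3328518 to 4337612 in the latter. The number of genes detected was not adjusted for these totals. Mitochondrially encoded genes took 1.96% to 2.39% of counts in the former and 3.21% to 4.45% in the latter. The part of these markers in the members' variation was not tested, and in bulk tissue fewer cells of a type and less RNA per cell cannot be told apart.

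**Figure D4:**
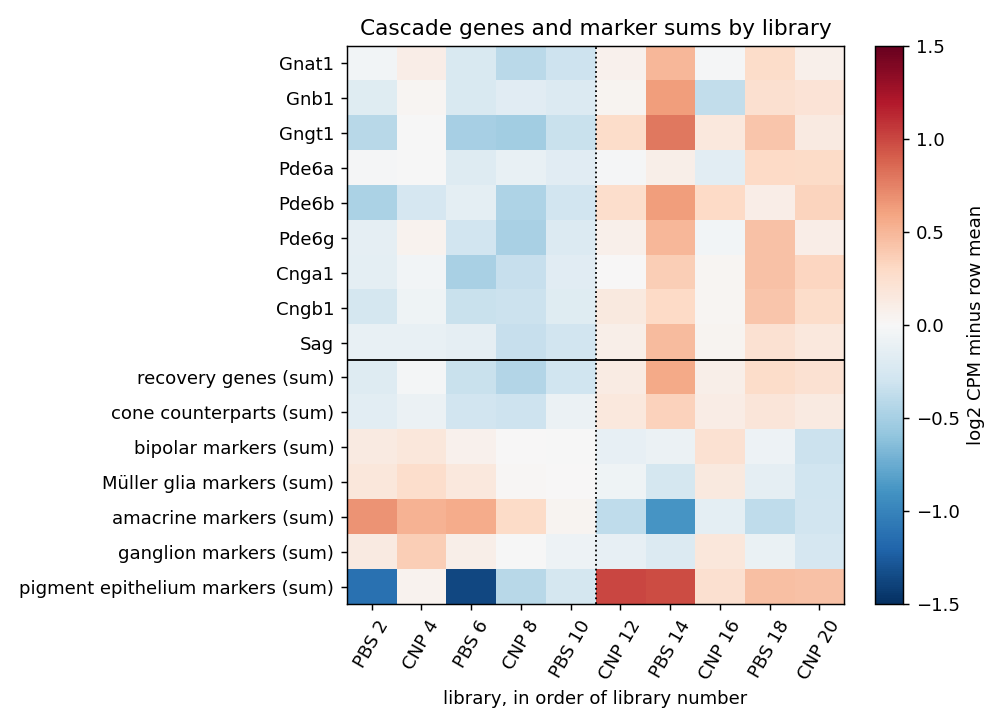
Log2 CPM minus the row mean is shown by colour for each of the 9 cascade genes and for the summed CPM of 7 gene lists, with libraries in order of their number and a dotted line after library 10. Cascade, recovery and cone rows are mostly blue to the left and red to the right of the line, as is the pigment epithelium row, and the amacrine row runs the opposite way, lowest in PBS 14.

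CNP and PBS libraries were unevenly spread over this division, with 3 PBS and 2 CNP libraries numbered up to 10 and 2 PBS and 3 CNP libraries above. Within the first set the log2 difference, CNP minus PBS, ran from -0.06 (Pde6b) to 0.16 (Gngt1), and within the second from -0.48 (Gnb1) to -0.07 (Pde6b), where PBS 14 and PBS 18 were the only controls. With library number above 10 as a covariate, all 9 log2 fold changes were negative, from -0.20 (Pde6g) to -0.04 (Pde6a). The smallest unadjusted p was then 0.106 and the edgeR adjusted p 0.9996. Without PBS 14, 8 of the 9 were positive, up to 0.25 for Pde6b (smallest edgeR adjusted p = 0.941). Without PBS 18 or without CNP 8, 5 of the 9 were positive (Gngt1, Pde6a, Pde6b, Cnga1 and Cngb1), and leaving out any of the other 7 libraries gave 0 to 3 positive. Pde6g was negative in each of these 10 fits, and the other 8 members were not. Their sign therefore depended on which library was left out, and none passed the test in any of these fits.

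Genes outside the cascade with the most similar pattern over the 10 libraries were taken from the 3228 others at 50 CPM or more, by Pearson correlation with the mean of the members' centred log2 CPM, as a description without a test. Among the closest were Susd3 (r = 0.978, rho = 1), Prph2, which encodes a protein of the disc rim (r = 0.975), the unnamed gene model Gm48551 (r = 0.975), Rcvrn, which encodes the photoreceptor calcium sensor recoverin (r = 0.975), Timm8b (r = 0.969), Sntg2 (r = 0.969) and the ribosomal protein gene Rps14 (r = 0.966). In all, 611 of the 3228 had r above 0.8, so a high correlation with the members was common among abundant genes. These values share the libraries, their depth and the TMM scaling with the members.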

How the data were processed

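Polyadenylated RNA of 10 neuroretina libraries was reverse transcribed with barcoded primers carrying molecular identifiers, per the labels' protocols. STAR, STARsolo and GRCm39 are named without versions, per the submitters' processing notes; the annotation release, the strand setting and the collapsing of molecular identifiers are not stated there, and uncollapsed counts would understate the counting error. The authors deposited a table of raw counts, whole numbers for 57186 Ensembl IDs in 10 libraries (3328518 to 5428697 counts each). Columns were matched by library name, and symbols and transcript lengths came from GENCODE M21 on GRCm38, so only chromosome names are given for genes. The 20 pairs of libraries within groups had a chi-square per degree of freedom of 4.4 to 36.5, so no pair was a duplicate.

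Counts were filtered with filterByExpr (minimum count 10, minimum total 15), scaled by TMM and tested with edgeR 4.0.16 (two-sided quasi-likelihood test, R 4.3.3). P-values were adjusted by Benjamini-Hochberg over 11499 genes, with a threshold of 0.05. Intervals are 95%, and a prior count of 2 was added for log2 CPM. Ratios were tested by exact permutation, adjusted over 12. Scripts were tested on simulated data. Alternatives were DESeq2 1.42.0, limma 3.58.1 (voom), other scalings, no filter, robust dispersions, library number as a covariate and leaving out each library. Members, lists and the rule for named genes (the members, the 2 most abundant genes of each list, the 8 most similar patterns, of which 1 is not reported here) were chosen with earlier results of these data known; marker lists of other cells are given as sums and as counts of genes.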

Additional observations from a re-analysis of the deposited data

Results flagged for a closer look

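Among 42 groups of 5 values examined (9 members and 12 ratios in each treatment), 4 held a library whose gap to its nearest neighbour was more than 0.71 of the group's range; chance flags about 1 in 20 such groups. Within CNP, CNP 8 stood apart as low for Gnat1 (4730.1 CPM, the others 6204 to 6746) and for Pde6g (4514 CPM, the others 6184 to 6784). Within CNP, CNP 4 stood apart for the Sag to Gnat1 ratio (0.709, the others 0.836 to 0.864) and for the Gnat1 to Gnat2 ratio (18.5, the others 12.6 to 13.7).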

How the results depend on the processing

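No paired analysis was made because the labels give no pairing of PBS and CNP libraries. Under all 19 alternatives 0 genes and 0 members passed the threshold, and the member log2 fold changes ran from -0.23 to 0.25 with an adjusted p of 0.941 or more. With library number above 10 as a covariate, Pde6b (-0.077) and Cngb1 (-0.066) turned negative; no other setting that kept all 10 libraries turned a member. Leaving out each library in turn gave ranges of -0.17 to 0.037 for Gnat1, -0.20 to 0.042 for Gnb1, -0.17 to 0.19 for Gngt1, -0.087 to 0.075 for Pde6a, -0.051 to 0.25 for Pde6b, -0.23 to -0.027 for Pde6g, -0.14 to 0.084 for Cnga1, -0.069 to 0.13 for Cngb1 and -0.16 to 0.042 for Sag. Of the 12 ratios 0 passed under any alternative. Within the sets of library number the log2 ratio difference turned to 0.017 for Pde6a/Pde6b and to -0.0031 for Sag/Gnat1. Leaving out each library gave -0.052 to 0.095 for Gnat1/Gnb1, -0.22 to 0.033 for Pde6a/Pde6b, -0.013 to 0.058 for Sag/Gnat1, -0.15 to 0.060 for Gnb1/Gnb3 and -0.011 to 0.087 for Gngt1/Gngt2. The 34 correlated pairs of members became 11 on library totals and 9 without the means of the library-number sets, an alternative added after seeing the data, and 27 to 35 when each library was left out. The median r was then 0.60, 0.67 and 0.82 to 0.88. The cause was not tested. Changes within the intervals given were not excluded with 5 libraries per group, and the smallest detectable change was not computed.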
